A study of Dichotomyctere nigroviridis with 22 samples.

Results

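The genes described here are the AP-1 transcription factors, the other immediate early genes and the MAPK phosphatases of the green-spotted puffer (Dichotomyctere nigroviridis), with the feedback regulators that accompany them. They were chosen by symbol alone, as every row whose gene name belongs to the Fos, Jun, ATF3, MAFF, C/EBP delta, Myc, EGR, NPAS4, NR4A, IER, KLF, DUSP, Sprouty, GADD45, BTG or ZFP36 families. The rule itself used no measured value, although it was chosen with earlier results of these data known. The rule found 64 genes of 20108, of which 64 were listed among the 19979 genes of the hypothalamus table and 59 among the 19346 genes of the ovary table. Rows carrying the names jun, arc, egr4 or btg2 were not found in either table, although rows described as c-Jun are present without a symbol.

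Immediate early genes are transcribed within minutes of a stimulus without any need for new protein, and most of their transcripts are short-lived. Fos and Jun proteins join through a leucine zipper to form AP-1, which binds DNA and passes a brief MAP kinase signal on to later target genes. Many MAPK phosphatases and Sprouty proteins are switched on by the same kinases and turn them off again, so their transcripts also report on the pathway. The 16 other dual specificity phosphatases are included by name only. In brain, Fos, EGR1 and NPAS4 are widely used as marks of recently active neurons, and in the ovary Fos, Jun, EGR1 and NR4A genes respond to gonadotropins.

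The study asked how the transcriptomes of hypothalamus and ovary respond to phoenixin-14 (PNX-14), a neuropeptide with roles in reproduction and feeding. Vitellogenic females of wild origin received 1 intramuscular injection of vehicle (control) or of 100 ng PNX-14 per g body weight, and organs were taken 24 h later. Poly(A) RNA of 22 samples was sequenced: 6 control and 6 PNX-14 hypothalami, and 5 control and 5 PNX-14 ovaries. Both organs came from the same 12 fish by the methods, but the labels do not say which samples share a fish, and fits over both organs treat the 22 samples as independent. The sources differ on whether the vehicle was saline or sterile water and whether whole ovaries or biopsies were taken, and they give no strain or allele. All fish had been brought slowly to saltwater to promote ovarian growth, and were anaesthetised with tricaine for the injection and euthanised with it. Both organs are bulk tissue, in which fewer cells of a type and less RNA per cell cannot be told apart, and nothing in the labels shows more than that the samples are separate, so p-values measure the spread between samples.

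Counted reads per sample ranged from 9140910 to 12729314 in hypothalamus and from 11756975 to 15735216 in ovary. The organs matched their labels: 11 neuron markers summed to between 2678 and 4065 CPM in the hypothalami and to between 37.6 and 69.0 CPM in the ovaries. The sum of 15 oocyte markers lay between 21833 and 38913 CPM in the ovaries. In 5 hypothalami (controls 1, 2, 5; PNX-14 samples 3, 4) that sum reached 2933 to 5479 CPM, against 132 to 1208 CPM in the other 7. Results that rest on those 5 samples are therefore also given without them, except for the correlations with fosab. Leaving them out was a choice made after seeing the data. CPM values are counts scaled to library size by trimmed mean of M values (TMM) within an organ, and levels of different genes are compared only in FPKM, which also corrects for gene length.

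The marker gene of the group, fosab, needs a remark on its gene model. The row named fosab (ENSTNIG00000016357) is annotated in the Ensembl TETRAODON 8.0 assembly on the minus strand of chromosome 14, from 5434828 to 5458050, a span of 23223 bp for a gene length of 1143 bp. It is described as c-Fos, and no bZIP domain is listed for it. It encloses, on the opposite strand, si:ch211-153j24.3 (ENSTNIG00000016356, from 5440269 to 5442283), which is described as c-Fos with a bZIP domain, and jdp2b (from 5452094 to 5452473), which encodes a Jun partner that represses AP-1. Its paralogue fosaa (ENSTNIG00000017405) is annotated with a bZIP domain on chromosome 10, from 5241428 to 5243441.

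The row named fosab and the row it encloses had opposite organ patterns. The fosab row lay between 70.5 and 152 CPM in the ovaries and between 9.08 and 38.8 CPM in the hypothalami. The enclosed row lay between 14.4 and 20.3 CPM in control hypothalami and between 15.0 and 20.9 CPM in PNX-14 hypothalami, but at no more than 0.45 CPM in any ovary. The strand setting used in counting is not given in the sources used here, and whether reads were shared between these rows was not tested. Values of fosab below are those of the row of that name.

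**Figure D1:**
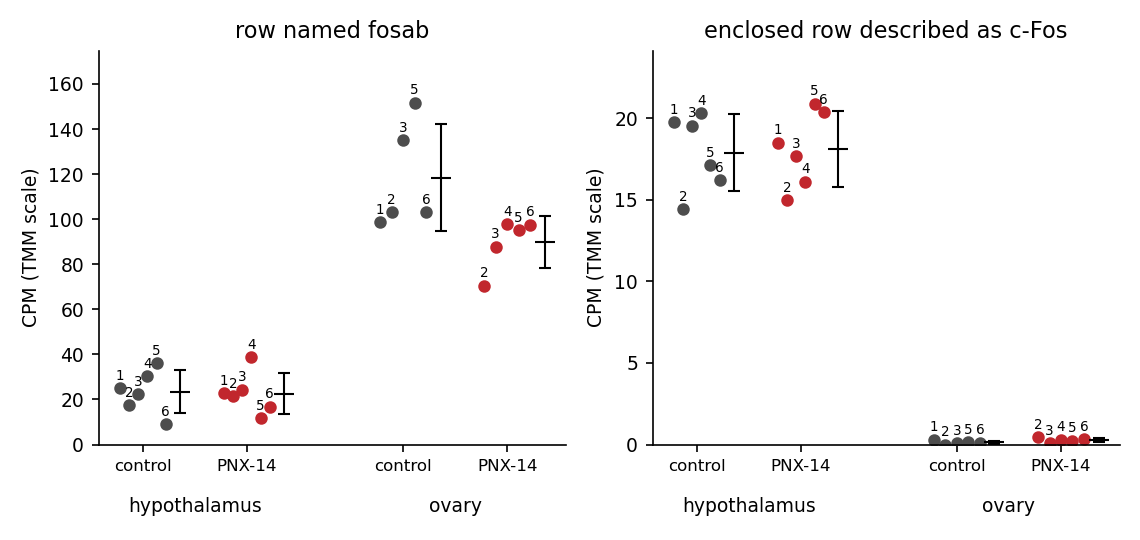
CPM (TMM scale within each organ, linear axis from 0) of the row named fosab, left, and of the enclosed row described as c-Fos, right. Each point is a sample with its replicate number, grey for control and red for PNX-14, and bars give the mean ± SD. The left row was higher in every ovary than in any hypothalamus and the right row the reverse.

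The first comparison asks which of these genes differ between the organs in control fish. These fish had also been anaesthetised, injected with vehicle and euthanised, and no undisturbed fish were sampled. Of the neuronal activity genes, the EGR members and npas4a were far higher in hypothalamus, as was JUND. In contrast myca, atf3, dusp2, the GADD45 genes GADD45B and gadd45aa, and fosab were higher in ovary. Of 58 members tested, 30 were called at an adjusted p under 0.05 and at least 4-fold (edgeR quasi-likelihood test, Benjamini-Hochberg), 19 higher in hypothalamus and 11 higher in ovary. The same rule called 41.1% of all 17840 genes, 26.7% higher in hypothalamus and 14.4% higher in ovary. A further 24 members were called at less than 4-fold, so that 54 of 58 were called with no fold minimum, against 83.5% of all genes. The other 4 were fosb, dusp7, zfp36l1a and NR4A1 (ENSTNIG00000007083). The 6 members not tested, fosl1a, DUSP13, dusp19a, dusp28 and both rows named DUSP3, had too few reads.

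The AP-1 subunits were divided between the organs. JUND, a constitutively expressed Jun protein, had 74.6 ± 12.9 FPKM in control hypothalami (SD, n = 6) and 0.686 ± 0.466 FPKM in control ovaries (SD, n = 5), a log2 difference of 6.39 ± 0.37 (SE) in edgeR. A row described as JunD without a symbol (transcript ENSTNIT00000014205), which is no member, had 24.1 ± 3.97 FPKM in control hypothalami and 8.48 ± 9.74 FPKM in control ovaries. The values of JUND are therefore those of the row of that name. The row named fosab had 37.4 ± 15.3 FPKM in hypothalamus and 188 ± 42.0 FPKM in ovary, a log2 difference of -2.69 ± 0.28. Its paralogue fosaa differed less, with 14.9 ± 3.06 FPKM and 18.7 ± 6.27 FPKM and a log2 difference of -0.69 ± 0.21. The other Jun member, junba (JunB, which can oppose c-Jun), was higher in hypothalamus by 1.59 ± 0.31 on the log2 scale, as was fosl2 (Fra-2) by 1.15 ± 0.19. The groups of JUND and fosab did not overlap between the organs. The lowest Fos genes were fosb, at 2.00 ± 0.40 FPKM in hypothalamus and 1.82 ± 3.84 FPKM in ovary, and fosl1a (Fra-1), at 0.483 ± 0.180 FPKM and 0.653 ± 0.542 FPKM. Of the partners, atf3, a stress-induced factor that dimerizes with Jun, had 46.8 ± 39.6 FPKM in hypothalamus and 480 ± 71.4 FPKM in ovary (log2 difference -3.71 ± 0.48). The small Maf protein gene maff was 0.92 lower in hypothalamus on the log2 scale (-0.92 ± 0.25).

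All 5 EGR members were called as higher in hypothalamus. A row described as EGR3 without a symbol (ENSTNIG00000007597), which is no member, had 15.3 ± 4.90 FPKM in control hypothalami and 17.5 ± 10.6 FPKM in control ovaries. The EGR proteins are zinc finger factors, and egr1 among them is induced by ERK signalling in neurons. It had 46.1 ± 8.82 FPKM in control hypothalami and 2.12 ± 2.71 FPKM in control ovaries, a log2 difference of 4.14 ± 0.49. The difference was 4.94 ± 0.52 for egr3 and 3.27 ± 0.59 for EGR2. Both rows named egr2b had no read in any control ovary, and against a floor of 3 reads over that group they were at least 43.6-fold (ENSTNIG00000004831) and 31.1-fold (ENSTNIG00000004834) higher in hypothalamus. These rows are short, lie on unplaced sequence and are described, like EGR2, as EGR-2b. The egr2b rows list different protein domains, and whether these rows are parts of the same gene was not tested. How reads shared by similar rows were counted is not given in the sources used here.

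The activity-regulated factor npas4a, which in mammals is largely restricted to neurons, was nearly undetected in ovary. It had 9.10 ± 1.86 FPKM in control hypothalami and 0.007 ± 0.017 FPKM in control ovaries. These rest on 1367 reads over the control hypothalami and 1 read over the control ovaries, a ratio of 1344 per library total (exact 95% interval 241 to 53135, counting error only). The orphan nuclear receptors nr4a2a and nr4a3 were higher in hypothalamus by 2.66 ± 0.45 and 1.95 ± 0.53 on the log2 scale, the second falling just short of 4-fold. Of the 2 NR4A1 rows, nr4a1 (ENSTNIG00000012516) was higher in ovary (-1.86 ± 0.58) and NR4A1 (ENSTNIG00000007083) was not called (-0.02 ± 0.61). All NR4A rows were low, at no more than 4.49 FPKM on average in either control group.

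The remaining inducible factors also differed in direction. The proto-oncogene myca, a Myc family factor that drives growth, had 47.7 ± 35.9 FPKM in hypothalamus and 533 ± 103 FPKM in ovary (log2 difference -3.85 ± 0.44), whereas its relative mycn was higher in hypothalamus (1.92 ± 0.27). The inflammatory C/EBP factor cebpd was higher in ovary (-2.53 ± 0.24). Of the IER genes, ier2b was higher in ovary (-1.75 ± 0.19) and both IER5L rows in hypothalamus (1.66 ± 0.25 and 2.68 ± 0.23). All 3 KLF genes were called as higher in hypothalamus at less than 4-fold, from 1.08 to 1.76 on the log2 scale.

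Of the 9 MAPK phosphatases, 4 were called at 4-fold or more as higher in hypothalamus and 2 as higher in ovary. The ERK phosphatases dusp4 and dusp6 and the JNK and p38 phosphatases dusp8a and dusp10 were called as higher in hypothalamus, by 3.47 ± 0.29, 2.23 ± 0.20, 2.51 ± 0.24 and 2.62 ± 0.26 on the log2 scale. The phosphatases dusp1 and dusp2 were called as higher in ovary. For dusp2 the levels were 16.9 ± 17.5 FPKM and 160 ± 35.8 FPKM (log2 difference -3.60 ± 0.55), and for dusp1 12.1 ± 4.60 FPKM and 53.2 ± 12.4 FPKM (-2.49 ± 0.23). Among the Sprouty genes, which encode inhibitors of receptor tyrosine kinase signalling, spry4 was higher in hypothalamus (2.16 ± 0.38) and spry1 and spry2 in ovary (-1.76 ± 0.18 and -1.60 ± 0.12).

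Among the other dual specificity phosphatases, dusp13a and DUSP26 (ENSTNIG00000001857) had no read in any control ovary. Against the floor of 3 reads they were at least 433-fold and 255-fold higher in hypothalamus. DUSP26 is a phosphatase of neural tissue in mammals, and the second row of that name (ENSTNIG00000013594) was 5.89 ± 0.56 higher on the log2 scale. Higher in ovary were dusp22a (-2.69 ± 0.29), dusp11, which in mammals acts on RNA ends (-2.42 ± 0.18), and dusp23a (-2.33 ± 0.22). Muscle markers, which bear on dusp13a because the mammalian genes at that locus are expressed in muscle, summed to 236 to 8494 CPM in control and 318 to 3735 CPM in PNX-14 hypothalami, and their part in its level was not tested.

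Growth arrest and RNA decay genes completed the pattern. GADD45B and gadd45aa, stress sensors that bind p38 pathway kinases or cell cycle proteins, were higher in ovary (-2.80 ± 0.29 and -2.69 ± 0.21), and gadd45gb.1 was higher in hypothalamus (6.66 ± 0.51). The antiproliferative gene btg1 was the most abundant member in control hypothalami, at 233 ± 53.4 FPKM against 35.5 ± 6.70 FPKM in control ovaries. In control ovaries the most abundant were myca, atf3, dusp23a and dusp11, the last at 217 ± 35.3 FPKM. The zinc finger proteins zfp36l2 and zfp36l1a, which destabilize AU-rich transcripts, differed by 1.08 ± 0.17 and 0.29 ± 0.16, of which only the former was called.

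Within each role the leading gene by FPKM often differed between the organs. Over all 12 hypothalami fosl2 led the Fos genes at 37.7 FPKM (27.4 to 44.0), next to fosab at 36.7 FPKM (14.5 to 63.0), and the 2 did not differ beyond their ranges, nor over the 7 hypothalami of low oocyte level (38.1 and 30.5 FPKM). Over all 10 ovaries fosab led at 166 FPKM (107 to 252), well above fosaa at 21.5 FPKM (13.9 to 28.9). Among the members JUND led the Jun genes in hypothalamus (82.1 FPKM) and junba in ovary (6.49 FPKM). A row described as c-Jun without a symbol (transcript ENSTNIT00000013976), which is no member, had 33.7 FPKM in control hypothalami and 39.9 FPKM in control ovaries. Another (transcript ENSTNIT00000004601) had 29.4 and 17.7 FPKM. A further one (transcript ENSTNIT00000010188) had 11.6 FPKM in control hypothalami and 0 in control ovaries.

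Among the MAPK phosphatases alone, without the other dual specificity phosphatases, dusp6 and dusp8a led in hypothalamus, at 40.4 and 33.4 FPKM with overlapping ranges. Over the 7 hypothalami of low oocyte level dusp7 (34.8 FPKM) came between dusp6 (42.7 FPKM) and dusp8a (34.3 FPKM). Within the same role in ovary, dusp2 ranged from 99.2 to 316 FPKM and lay above dusp1, which ranged from 35.8 to 73.7 FPKM. The IER genes were led by ier5l (ENSTNIG00000013409) in hypothalamus (28.4 FPKM) and by ier2b in ovary (48.3 FPKM). Among the KLF and Sprouty genes the order was shared: klf6a came before KLF6 and spry1 before spry2 in both organs, also over those 7 hypothalami. The order of atf3 before maff was shared over all samples only, since over the 7 hypothalami maff had 35.5 FPKM (22.6 to 45.5) and atf3 21.1 FPKM (12.8 to 35.8), with overlapping ranges.

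**Figure D2:**
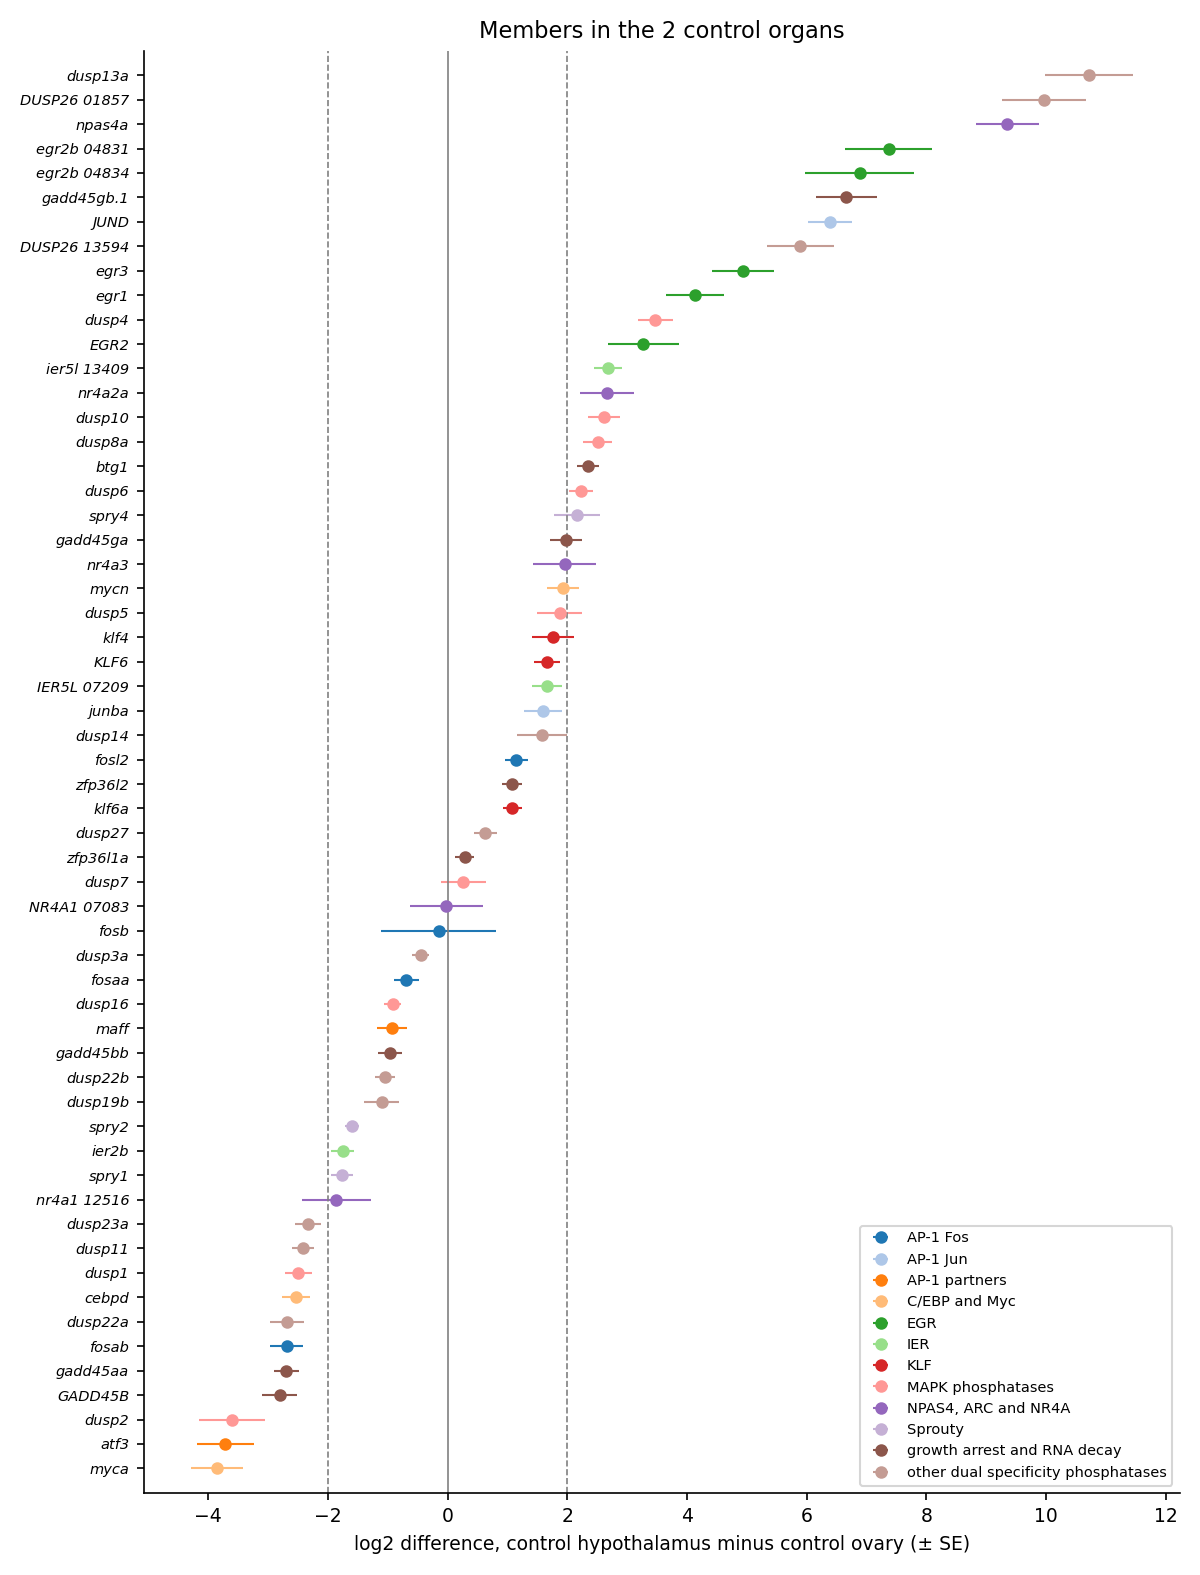
Log2 difference between control hypothalamus (n = 6) and control ovary (n = 5) for the 58 members tested, from edgeR, with bars of ± 1 SE and colours by role. Dashed lines mark 4-fold, beyond which 19 members lay on the hypothalamus side and 11 on the ovary side. Fitted values of the rows with no read in control ovaries depend on the prior count.

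Members that were higher in ovary varied among the hypothalami with the oocyte markers. For 7 of the 11, atf3, myca, dusp2, GADD45B, gadd45aa, dusp22a and dusp23a, the 5 hypothalami with the highest level were the same 5 that had the highest oocyte sum. This held for 0 of the 19 members higher in hypothalamus, for 0 of the 23 called at less than 4-fold and tested within hypothalamus, and for 0 of the 4 not called. The share of all genes higher in ovary for which this held is not given here, so it is not shown to be particular to these members. Whether the oocyte-marker RNA and these transcripts share a source was not tested. Without those 5 samples the log2 difference from control ovary was -5.26 for myca, -5.14 for atf3, -5.47 for dusp2 and -2.93 for fosab, and 35 of 60 members tested were called at 4-fold or more, 21 of them higher in hypothalamus. The same fit called 44.8% of all 18039 genes, with 27.3% of all genes higher in hypothalamus.

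**Figure D3:**
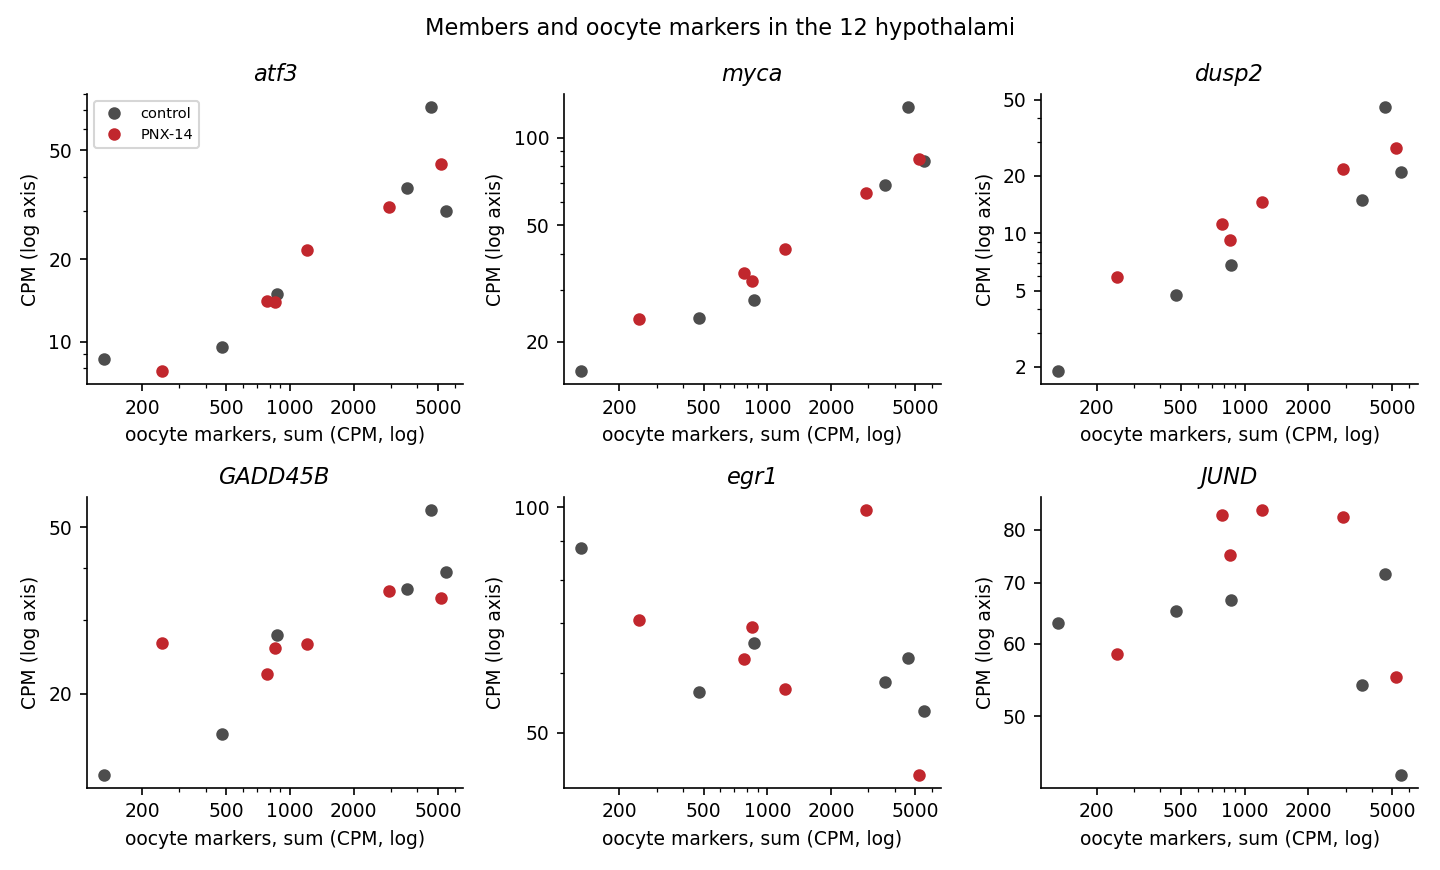
CPM of 6 members against the summed CPM of 15 oocyte markers in the 12 hypothalami, both axes logarithmic, grey for control and red for PNX-14. The 5 samples at 2933 CPM or more on the horizontal axis were also the 5 highest for atf3, myca, dusp2 and GADD45B, and not for egr1 or JUND.

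The second comparison asks whether PNX-14 changed these genes in the hypothalamus 24 h after injection. None of the 57 members tested was called at an adjusted p under 0.05 in edgeR, DESeq2 or limma-voom, and in edgeR 0.0% of all 17126 genes were. Before adjustment 3 members had a p under 0.05 in edgeR, a share near the 3.9% of all genes. All 3 were higher after PNX-14, where 2.57% of all genes were higher and 1.33% lower (440 higher of 668). DESeq2, run without a count filter, gave such a p for 5 of 64 members and 774 of 19979 genes. By limma-voom it was 3 of 57 and 623 of 17126. With DESeq2 size factors 3 of 4 such members and 350 of 641 such genes were higher. Log2 fold changes were positive in 38 of 57 members, with a median of 0.07, against 51.5% and a median of 0.01 over all genes.

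The members with an unadjusted p under 0.05 were junba, IER5L and klf4. In controls junba ranged from 35.9 to 47.7 CPM (median 42.5) and after PNX-14 from 48.1 to 51.9 CPM (median 49.5). All 6 PNX-14 samples lay above all 6 controls, though the nearest were close together. Groups did not overlap for 0.158% of all genes, 0.0993% with PNX-14 higher and 0.0584% with PNX-14 lower. The log2 fold change of junba was 0.23 ± 0.10 (edgeR, adjusted p = 0.98), and the unadjusted p stayed under 0.05 in 7 of 12 fits that left out a sample.

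IER5L (ENSTNIG00000007209), a member of the immediate early response family of little known function, ranged from 7.92 to 13.5 CPM in controls (median 11.6) and from 11.6 to 18.1 CPM after PNX-14 (median 13.7). The groups overlapped, and the log2 fold change was 0.39 ± 0.17 (edgeR, adjusted p = 0.98), under 0.05 before adjustment in 8 of 12 such fits. For klf4, a zinc finger factor expressed in endothelial and myeloid cells among others, controls ranged from 3.99 to 11.4 CPM (median 6.97) and PNX-14 samples from 6.62 to 14.2 CPM (median 10.9). These groups overlapped as well (log2 fold change 0.55 ± 0.25, adjusted p = 0.98 in edgeR, under 0.05 before adjustment in 4 of 12 such fits). Microglia and macrophage markers had positive fold changes in 14 of 16 genes, with a median of 0.47, and 2 of them had an unadjusted p under 0.05. Their sums were 500 to 1055 CPM in controls and 507 to 1469 CPM after PNX-14. Endothelial markers were positive in 3 of 6 (median -0.03). Oocyte markers were negative in 13 of 14 (median -0.43), muscle markers in 6 of 7 (-0.52) and oligodendrocyte markers in 5 of 6 (-0.12). The part of these cell types in these results was not tested. Without the 5 hypothalami of high oocyte level the log2 fold changes were 0.18 for junba, 0.32 for IER5L and 0.40 for klf4, none with an unadjusted p under 0.05 in edgeR.

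The Fos genes showed no difference beyond their spread in the hypothalamus. The row named fosab ranged from 9.08 to 36.1 CPM in controls (median 23.8) and from 11.6 to 38.8 CPM after PNX-14 (median 22.1). Its log2 fold change was -0.05 ± 0.32, and the value lay between -0.27 and 0.12 when single samples were left out. The values for fosaa, fosb and fosl2 were 0.07 ± 0.14, 0.08 ± 0.28 and 0.13 ± 0.11. JUND ranged from 43.1 to 71.5 CPM in controls (median 64.2) and from 55.1 to 84.1 CPM after PNX-14 (median 78.8), and its log2 fold change of 0.27 ± 0.14 did not pass the unadjusted threshold.

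Nor did the neuronal activity genes separate by treatment. Control hypothalami had 53.4 to 88.1 CPM of egr1 (median 60.7) and PNX-14 hypothalami 43.9 to 99.0 CPM (median 65.9), a log2 fold change of 0.06 ± 0.17. For npas4a controls ranged from 18.1 to 29.4 CPM (median 18.9) and PNX-14 samples from 15.5 to 48.5 CPM (median 24.3), a log2 fold change of 0.36 ± 0.23. The highest npas4a value of each group came from the replicates numbered 3, which were also the highest of their groups for fosb, egr1, egr3 and nr4a3. Control replicate 3 was the highest of its group in 7 of the 18 Fos, Jun, EGR, NPAS4, NR4A and IER genes tested and PNX-14 replicate 3 in 5 of 18. Control replicate 5 was the highest of its group in 5 of 18 and PNX-14 replicate 1 in 7 of 18. How often each sample was the highest over all genes is not given here, so these counts are not shown to be particular to these genes. All 4 members tested among the NPAS4 and NR4A genes had positive fold changes, from 0.04 to 0.44, and none passed a threshold.

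**Figure D4:**
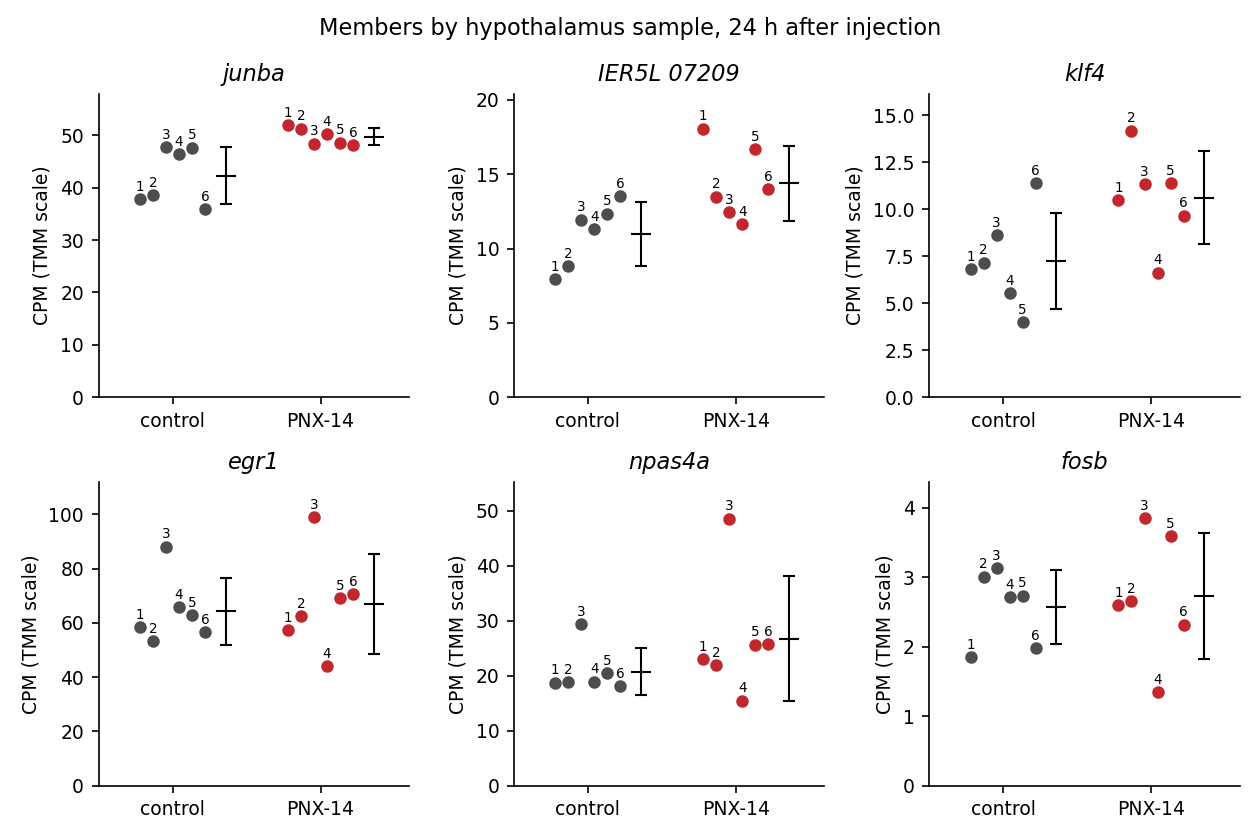
CPM (TMM scale, linear axes from 0) of 6 members in 6 control (grey) and 6 PNX-14 (red) hypothalami, each point a sample with its replicate number and each bar the mean ± SD. The groups of junba did not overlap, and replicate 3 was the highest of both groups for egr1, npas4a and fosb.

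The phosphatases, Sprouty genes and growth arrest genes followed no common direction in the hypothalamus. Of the 9 MAPK phosphatases 6 had positive and 3 negative fold changes, between -0.07 and 0.30, the largest being that of dusp4 (0.30 ± 0.14). Of the 11 other dual specificity phosphatases tested 7 were negative, down to -0.38 ± 0.18 for DUSP26 (ENSTNIG00000001857). Growth arrest and RNA decay genes were positive in 6 of 8, up to 0.36 ± 0.19 for gadd45gb.1, and Sprouty genes lay between -0.16 and 0.11. The EGR rows with few reads lay furthest from 0, at 0.74 ± 0.40 for egr2b (ENSTNIG00000004834) and -0.66 ± 0.39 for EGR2. None of these passed the unadjusted threshold.

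The third comparison puts the same question to the ovary. Here dusp2, GADD45B, dusp16 and gadd45bb were higher after PNX-14 and fosab and egr1 lower, before adjustment only. None of the 46 members tested was called at an adjusted p under 0.05 in edgeR, DESeq2 or limma-voom, where edgeR called 0.0135% of all 14777 genes. At an unadjusted p under 0.05 there were 6 members in edgeR, against 7.99% of all genes (4.05% higher and 3.93% lower). DESeq2 without a count filter gave 8 of 59 members and 1487 of 19346 genes, and limma-voom 5 of 46 and 1076 of 14777. Positive fold changes were found in 22 of 46 members, with a median of -0.01, against 46.6% and a median of -0.02 over all genes.

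The row named fosab measured 98.6, 103, 135, 152 and 103 CPM in control ovaries 1, 2, 3, 5 and 6, and 70.5, 87.8, 97.8, 95.2 and 97.6 CPM in PNX-14 ovaries 2 to 6. Every PNX-14 ovary lay below every control, the nearest being close together. Groups did not overlap for 1.46% of all genes, 0.765% with PNX-14 higher and 0.697% with PNX-14 lower. The log2 fold change of fosab was -0.40 ± 0.15 (edgeR, adjusted p = 0.59). Its unadjusted p was under 0.05 in 8 of 10 fits that left out a sample, and not without control ovary 5 (-0.29) or control ovary 3.

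Control ovary 5 also decided the values of egr1. In the order above egr1 measured 1.69, 0.272, 0.814, 9.14 and 2.35 CPM in controls and 0.802, 0.914, 0.765, 0.743 and 0.936 CPM after PNX-14. The PNX-14 values lay within the range of the controls. The log2 fold change of -1.77 ± 0.70, under 0.05 before adjustment in edgeR, became -0.64 without that sample and -0.93 in limma-voom, neither of which passed that threshold. The same ovary was the highest control in 6 of the 11 genes of those families tested in ovary, fosab, junba, egr1, ier2b, nr4a1 and nr4a3. How often it was the highest control over all genes is not given here.

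For junba the controls measured 4.83, 4.71, 7.66, 23.8 and 13.9 CPM and the PNX-14 ovaries 4.63, 4.32, 10.3, 6.75 and 6.55 CPM. These groups overlapped, and the log2 fold change of -0.75 ± 0.43 did not pass the unadjusted threshold. The other AP-1 genes lay on both sides of 0, fosaa at 0.35 ± 0.26, fosl2 at 0.08 ± 0.25, maff at 0.34 ± 0.26 and atf3 at -0.10 ± 0.12. None of these passed the unadjusted threshold. With too few reads to be tested, fosb measured 10.7 CPM in control ovary 5 and at most 0.557 CPM in any other ovary.

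The phosphatases dusp2 and dusp16 were the MAPK regulators with an unadjusted p under 0.05 in the ovary. For dusp2, which acts on ERK and p38 in the nucleus, controls measured 156, 196, 96.5, 164 and 145 CPM and PNX-14 ovaries 247, 255, 210, 186 and 294 CPM. Only PNX-14 ovary 5 fell within the range of the controls. The log2 fold change was 0.65 ± 0.18 (edgeR, adjusted p = 0.56), and the unadjusted p stayed under 0.05 in 10 of 10 fits that left out a sample.

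For dusp16, which acts mainly on JNK, controls measured 76.3, 83.2, 65.4, 88.6 and 99.2 CPM and PNX-14 ovaries 97.4, 118, 93.6, 114 and 106 CPM. Control ovary 6 overlapped the PNX-14 group, and the log2 fold change was 0.36 ± 0.13, with an unadjusted p under 0.05 in 9 of 10 such fits. The other 7 MAPK phosphatases did not pass the threshold, and 5 of them had negative fold changes, the lowest that of dusp5 (-0.82 ± 0.50).

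The 2 genes of the GADD45B type also had an unadjusted p under 0.05. GADD45B measured 189, 193, 179, 143 and 141 CPM in controls and 290, 239, 154, 252 and 403 CPM after PNX-14. PNX-14 ovary 4 lay among the controls and the other 4 above them. Its log2 fold change was 0.66 ± 0.21, and its unadjusted p was under 0.05 in 10 of 10 fits that left out a sample.

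Its relative gadd45bb measured 56.6, 55.6, 82.7, 50.8 and 37.1 CPM in controls and 87.4, 116, 73.9, 86.1 and 52.2 CPM after PNX-14. These groups overlapped (log2 fold change 0.56 ± 0.22), and the unadjusted p stayed under 0.05 in 5 of 10 such fits. The other GADD45, BTG and ZFP36 genes tested in the ovary all had negative log2 fold changes, down to -0.28. Sprouty genes lay between 0.09 and 0.16, and 7 of 8 other dual specificity phosphatases were positive, up to 0.27, with no unadjusted p under 0.05.

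Markers of other cell types were followed in the ovaries as well. All 6 follicle markers tested and all 6 endothelial markers tested had negative fold changes after PNX-14, with medians of -0.29 and -0.31. Their sums overlapped between the groups. Follicle markers summed to 123 to 288 CPM in controls and 105 to 197 CPM after PNX-14, and endothelial markers to 57.6 to 74.2 CPM and 37.3 to 61.9 CPM. Muscle markers were negative in 6 of 7 (median -0.29), with sums of 3775 to 6046 CPM in controls and 2991 to 4237 CPM after PNX-14. All 3 astrocyte and radial glia markers and the 2 pituitary markers tested had positive fold changes. Microglia and macrophage markers were negative in 12 of 14 (median -0.55), with sums of 716 to 1222 CPM in controls and 707 to 1564 CPM after PNX-14, and oocyte markers ranged from 21833 to 38913 CPM and from 24279 to 30973 CPM. With the oocyte level as a covariate 5 of 46 members had an unadjusted p under 0.05 in edgeR, against 6.1% of all genes, and all 5 were higher: dusp2 (0.54), GADD45B (0.60), dusp16 (0.36), dusp4 (1.00) and maff (0.61). The log2 fold changes of fosab, egr1 and gadd45bb were then -0.37, -1.51 and 0.40, and none of these passed the unadjusted threshold. The part of the other cell types in these results was not tested.

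**Figure D5:**
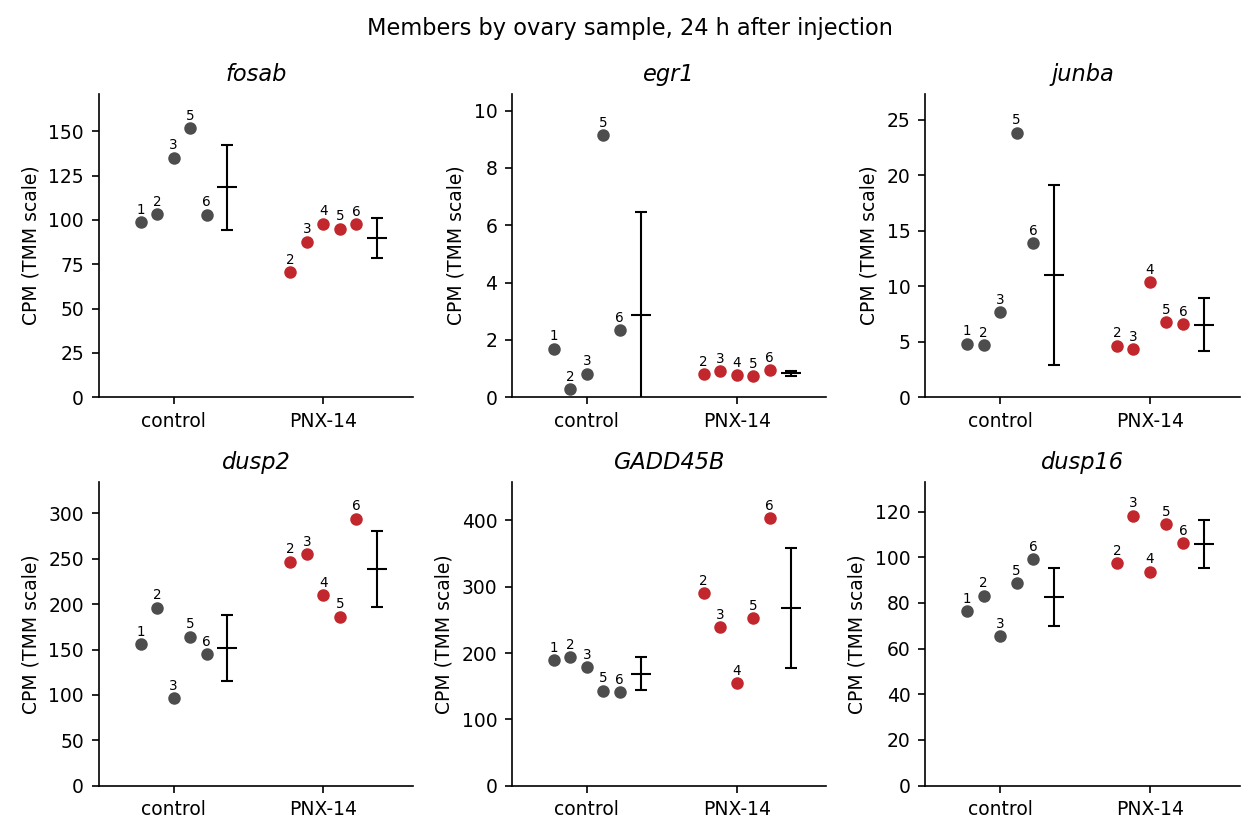
CPM (TMM scale, linear axes from 0) of 6 members in 5 control (grey) and 5 PNX-14 (red) ovaries, each point a sample with its replicate number and each bar the mean ± SD, the lower bar of egr1 being cut at 0. The groups of fosab did not overlap, and control ovary 5 was the highest control for fosab, egr1 and junba.

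Whether the response to PNX-14 differed between the organs was tested directly, as the ovary response minus the hypothalamus response. No member of 58 was called at an adjusted p under 0.05 by edgeR, DESeq2 or limma-voom, and edgeR called 0.00561% of all genes. Unadjusted p under 0.05 were found for 7 members in edgeR, against 6.19% of all genes. Of these 3 were positive and 4 negative, against 3.2% and 2.99% of all genes, and 29 of all 58 differences were positive, against 55.0%. DESeq2 without a count filter gave such a p for 9 of 64 members and 1285 of 20108 genes. By limma-voom it was 2 of 58 and 694 of 17840. The difference was 0.86 for GADD45B, -1.77 for egr1 and -0.92 for junba. Without control ovary 5 it was -0.69 for egr1 and -0.43 for junba, and neither passed the unadjusted threshold. For fosb the difference was -3.89 with all samples and 0.064 without that ovary. For GADD45B it was 0.29 without the 5 hypothalami of high oocyte level and 0.64 in limma-voom, neither past the unadjusted threshold, which it passed in 8 of 22 fits that left out a sample.

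The other 3 rest on few ovarian reads. EGR2 differed by 2.68 ± 0.78 (edgeR, adjusted p = 0.60), with 0 to 4 reads in each control ovary and 2 to 13 in each PNX-14 ovary. DUSP26 (ENSTNIG00000001857) differed by 3.65, with no read in control ovaries and at most 3 in a PNX-14 ovary, so that its fitted value depends on the prior count. NR4A1 (ENSTNIG00000007083) differed by -2.02. Without the 5 hypothalami of high oocyte level, 3 of 60 members tested had an unadjusted p under 0.05, against 5.19% of all genes. With the replicate number as a block, as if same-numbered organs shared a fish, 4 of 58 had one, against 4.15%. EGR2 (2.90) and DUSP26 (3.58) were then joined by dusp27 and btg1, while GADD45B (0.64), egr1 (-1.25), junba (-0.74), fosb (-1.74) and NR4A1 (-2.43) did not pass.

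The kinase cascade that drives these genes and their delayed targets were followed as lists of symbols. Of 61 genes of the MAP kinase cascade and its factors tested in hypothalamus, 2 had an unadjusted p under 0.05, the ETS factor gene elk3 (log2 fold change 0.28) and the JNK gene mapk9 (-0.21). In ovary there were 6 of 60, 2 higher and 4 lower, among them the p38 gene mapk14a (-1.33), srfb, which encodes serum response factor (0.37), mapk9 (-0.50), the ERK5 gene mapk7 (-0.33) and raf1a (-0.35). Levels of mapk14a were low, at 0.814 to 2.99 CPM in control ovaries and 0.495 to 0.995 CPM after PNX-14. The medians of the list were 0.04 and -0.07. Of the delayed targets, 1 of 29 in hypothalamus, the cytokine inhibitor socs3a (0.91), and 4 of 16 in ovary had an unadjusted p under 0.05. These 4 were the protease inhibitor timp2b (-0.78), the kinases pim1 (0.62) and SGK1 (-0.55), and the EGR corepressor nab1b (0.45). The medians of this list were 0.03 and -0.29. Over all genes 3.9% in hypothalamus and 7.99% in ovary had an unadjusted p under 0.05, with median fold changes of 0.01 and -0.02. No gene of either list was called at an adjusted p under 0.05 by edgeR.

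The relation of the members to fosab across samples was also computed. Over 12 hypothalami 10 of 56 members had an unadjusted permutation p under 0.05 for Pearson's r with fosab (log2 CPM centred on group means), against 11.1% of all genes, and over 10 ovaries 8 of 45, against 14.6%. None passed after adjustment over all genes, where the smallest adjusted permutation p was 0.44 in hypothalamus and 0.19 in ovary. Of the 5 hypothalami highest for fosab, 4 were among the 5 of high oocyte level. Among the 10 members, atf3, dusp1, gadd45aa, dusp11, dusp22a and dusp23a were called at 4-fold or more as higher in ovary. The rest were junba, ier2b, klf4 and spry1. These correlations were not computed without the 5 hypothalami of high oocyte level, and the part of oocyte RNA in them was not tested. In ovary the ERK phosphatase gene dusp5 had the highest r, 0.85 (Spearman's rho 0.89, permutation p = 0.002 unadjusted, n = 10), and 0.84 without the 2 samples furthest from the median of fosab. In hypothalamus klf4 had an r of -0.78. The 10 genes most like fosab by Pearson's r held no member in either organ. They were led by ZDHHC14 and tor2a among the named genes of hypothalamus (0.88 and 0.87, 12 samples) and by the mitotic kinase aurka and SLC35G1 in ovary (0.97 and 0.96, 10 samples).

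The spread within groups was led by different members in each organ. The SD of log2 CPM within groups had a median of 0.33 over members and 0.29 over all genes in hypothalamus, and of 0.40 and 0.35 in ovary. In hypothalamus the most variable members were dusp2, atf3, NR4A1 (ENSTNIG00000007083) and myca, with SD of 1.27, 1.05, 0.98 and 0.96. Of these dusp2, atf3 and myca are among the members whose 5 highest hypothalami were those of high oocyte level. NR4A1, which was low, shared only 1 of its 5 highest with them. Over the other 7 hypothalami the SD was 0.70 for dusp2, 0.53 for atf3, 0.53 for NR4A1 and 0.37 for myca. The median there was 0.25 over members and 0.23 over all genes. In ovary the most variable members were egr1, dusp14, dusp7 and nr4a3, from 1.17 down to 1.11.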

How the data were processed

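RNA-seq libraries (poly(A), strand-specific kit) of 12 hypothalami and 10 ovaries were grouped by their GEO labels. The authors trimmed reads with fastp, aligned them with HISAT2 to Ensembl TETRAODON 8.0 and counted them per gene with featureCounts (for which the sources used here give neither versions nor a strand setting), and deposited raw counts and FPKM, the latter scaled by gene length and mapped reads. The deposited 22 size-factor-normalised columns and the authors' fold changes and p-values from DESeq2 were not used.

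Counts were fitted with edgeR 4.0.16 in R 4.3.3 (robust quasi-likelihood, TMM, filterByExpr, Benjamini-Hochberg over all genes, called at 0.05), each organ apart. The organ comparison and the interaction came from 1 fit over 22 samples, in which a gene absent from a table counted as 0. DESeq2 1.42.0, limma-voom 3.58.1, DESeq2 size factors, a filter of 10 counts or none, an oocyte covariate, a replicate block and leaving out samples were alternatives. Correlations used log2 CPM (prior count 2) centred on group means with permutation p (100000 permutations) adjusted over all genes, in place of the planned adjustment over members. The statistics were tested on simulated data. Named are members past an unadjusted p of 0.05, the 2 of highest FPKM per role and organ, all Fos, Jun, EGR, NR4A, NPAS4 and IER genes, the 5 largest organ differences each way, at most 5 list genes per organ past an unadjusted p of 0.05, and the 10 genes most like fosab. Others were named after their values were seen. Members and gene lists were chosen with earlier results of these data known. Counting precision is set by 9140910 to 15735216 counted reads per sample.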

Additional observations from a re-analysis of the deposited data

Results flagged for a closer look

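Among 110 groups of values tested over 30 members, 11 held a sample that stood apart from the rest of its group by Dixon's criterion, in 8 members. Chance alone flags about 1 in 20 groups where values are normal and groups independent. The groups here share samples and CPM values were not tested for normality, so no excess over that rate is shown. All values are in CPM.

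In hypothalamus, npas4a, the neuronal activity factor, reached 29.4 in control replicate 3 (next 20.5) and 48.5 in PNX-14 replicate 3 (next 25.7), and egr1 reached 88.1 in control replicate 3 (next 65.8). EGR2 was 3.40 in control replicate 1 (next 1.52), and gadd45bb was 57.4 in control replicate 5 (next 37.2), a sample of high oocyte-marker level.

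In ovary, control replicate 5 stood apart in 3 members: fosb at 10.7 (next 0.537), egr1 at 9.14 (next 2.35) and nr4a3 at 3.51 (next 1.11). Control replicate 2 stood apart for JUND at 1.36 (next 0.494) and for myca at 939 (next 638). In the PNX-14 ovaries fosb was 0.557 in replicate 5 (next 0.0891).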

How the results depend on the processing

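No member was called between PNX-14 and control, or for the interaction, under any alternative run. In hypothalamus genes called numbered 5 with DESeq2 (0 in edgeR, 0 to 1 leaving out single samples), and members with an unadjusted p under 0.05 numbered 7 without the 5 hypothalami of high oocyte level, 5 with DESeq2 and 5 with the oocyte covariate (3 in edgeR, 0 to 8 leaving out single samples). In ovary genes called numbered 0 under the filter of 10 counts and 31 with DESeq2 (2 in edgeR, 2 to 3 leaving out single samples), and members with an unadjusted p under 0.05 ranged from 4 to 9 (6 with all samples). For the interaction genes called numbered 0 under that filter, 25 with DESeq2 and 2 with limma-voom (1 in edgeR, 1 to 4), and members with an unadjusted p under 0.05 numbered 3 without the 5 hypothalami, 3 under the filter and 2 with limma-voom (7 in edgeR, 3 to 10). Between organs 3359 genes were called at 4-fold or more under the filter and 14900 without a fold minimum (7330 in edgeR, 7133 to 7597), and 54 members without a fold minimum (30 in edgeR, 30 to 34). DESeq2 size factors moved the median organ difference of all genes from 0.18 to 0.33 and called 34 members, 23 higher in hypothalamus. They also moved the hypothalamic genes with an unadjusted p under 0.05 from 440 of 668 higher to 350 of 641. Without 2 samples 2 ovarian members correlated with fosab (8 with all).

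Of 33 fold changes of named members followed, 2 changed sign, each when single samples were left out: fosab in hypothalamus, from -0.27 to 0.12, and the interaction of fosb, from -6.27 to 0.064. The organ difference of fosaa was -0.34 under the filter and no longer called. The causes were not tested.

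The labels do not say which samples share a fish, although both organs came from the same 12 fish. Deviations of same-numbered samples correlated at -0.29 to 0.32 within hypothalamus, 0.036 to 0.32 within ovary and -0.13 to 0.24 between organs. Not every pair was over 0.1, the criterion used for pairing, and no pairing was assumed in the main fits. Each fish received only vehicle or only PNX-14, so same-numbered control and PNX-14 samples of an organ came from different fish. A block by replicate number within an organ is therefore no pairing by fish. With that block, hypothalamic members with an unadjusted p under 0.05 numbered 1, ovarian genes called 10 and ovarian members with such a p 9. With same-numbered organs of a treatment as the block, interaction members with such a p numbered 4. Within an organ 0 of 12 hypothalami and 5 of 8 ovaries correlated best with their own number, and between organs 16 of 20 samples did. Same-numbered organs may therefore share a fish, which the fits over both organs without a block do not take into account.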

Other observations

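The tables hold 10 rows that are described as Fos, Jun, EGR, IER, NR4A or NPAS4 proteins but carry another name or none, and so escaped the rule. They were singled out after their values were seen. A row described as EGR3 (ENSTNIG00000007597) had a log2 fold change of 0.49 in hypothalamus and of -0.63 in ovary. A row described as c-Jun (transcript ENSTNIT00000013976) had values of 0.17 in hypothalamus and -0.52 in ovary. Control ovary 5 was the highest ovary for both rows, at 36.5 CPM (next 25.3) for EGR3 and 64.8 CPM (next 36.2) for c-Jun. A row described as JunD (transcript ENSTNIT00000014205) had a value of -1.95 in ovary, where control ovary 5 had 22.7 CPM and control ovary 6 had 7.35 CPM. The hypothalamic value of the EGR3 row and the ovarian values of the c-Jun and JunD rows had an unadjusted p under 0.05 in edgeR, and none was called after adjustment over all genes.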
